A study of Homo sapiens with 9 samples.

Results

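The SLC25 genes encode the mitochondrial carriers, the largest family of solute transporters in the inner mitochondrial membrane. The members described here were the rows marked protein-coding whose gene name was SLC25A followed by a number, 45 of the 37118 genes listed. The choice used names only and no measured value. The row of SLC25A41, a calcium-independent ATP-Mg/phosphate carrier, was not marked protein-coding and was left out. SLC25A2 and SLC25A48 were not analysed here.

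A carrier of this family exchanges or imports 1 class of small molecule across a membrane that is otherwise closed to charged metabolites. The ADP/ATP carriers send ATP to the cytosol in exchange for ADP, and the phosphate carrier brings in the phosphate that ATP synthase uses. Other carriers move the acids of the citric acid cycle, amino acids, coenzymes, nucleotides, iron and glutathione. Carriers are made in the cytosol, passed to the inner membrane by the small TIM chaperones and inserted by the TIM22 complex.

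Transcript levels were measured by sequencing of polyadenylated RNA from A375, a human melanoma line in long-standing laboratory use with an activating BRAF mutation, whose genotype is labelled WT. Cells had received metformin at 0 mM, 20 mM or 40 mM, with 3 libraries per dose and 9 in all. The labels name no treatment time. Metformin, a biguanide given to patients with type 2 diabetes, is known to act on complex I of the respiratory chain among other targets. The question put to the family was which carriers had higher or lower transcript levels at each dose, as far as the series' design text states its aim, the action of metformin on these cells.

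Library totals ran from 65738242 to 75629413 counts. SOX10, a neural crest and melanocyte factor, averaged 95.8 FPKM (fragments per kilobase of transcript, scaled to the library's mapped total), S100B 8.33 FPKM and MITF 2.95 FPKM. The pigment cell markers PMEL, MLANA, TYR and DCT averaged at most 0.388 FPKM, and the 7 listed markers of blood, epithelial, endothelial, fibroblast and liver cells averaged at most 0.168 FPKM. Replicate 3 of 40 mM differed from its 2 companions: it had the lowest total, transcripts encoded by mitochondrial DNA took 4.36% of its counts against 3.01% and 3.27%, and on the second principal component it lay at -22.6 against 17.7 and 15.2. Several results that rest on it, though not all, are therefore given with and without it.

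Family transcripts spanned from silent to very abundant. SLC25A5, the main ADP/ATP carrier of dividing cells, had the highest mean over the 9 libraries at 336.9 FPKM, followed by SLC25A6, a second ADP/ATP carrier, at 164.1 FPKM and the phosphate carrier SLC25A3 at 62.8 FPKM. The next 3 were the oxoglutarate/malate carrier SLC25A11 at 26.2 FPKM, the citrate carrier SLC25A1 at 22.3 FPKM and the aspartate/glutamate carrier SLC25A13 at 20.6 FPKM. The build of the deposited coordinates was not given in the sources used here. In them SLC25A5 (ENSG00000005022) runs on chromosome X from 119468422 to 119471396 on the plus strand. SLC25A6 (ENSG00000169100) runs on the minus strand of X from 1386152 to 1392113, and SLC25A4 (ENSG00000151729), the remaining tested ADP/ATP carrier, on the plus strand of chromosome 4 from 185143266 to 185150382. The first 3 genes together made up 65.5% ± 0.597 (SD, n = 3) of the summed family FPKM at 0 mM.

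A mean of at least 1 FPKM over the 9 libraries was needed for testing, and 38 of the 45 members had it. The 7 that did not were SLC25A53 at 0.663, SLC25A34 at 0.417, SLC25A21 at 0.223, SLC25A18 at 0.164, SLC25A47 at 0.0228, SLC25A52 at 0.00973 and SLC25A31 at 0.00273 FPKM. SLC25A31, the ADP/ATP carrier of sperm, was listed at 0 in 8 of the 9 libraries. SLC25A18 and SLC25A21 carry glutamate and oxodicarboxylates, and SLC25A52 is a close copy of the NAD carrier SLC25A51. The plot of levels by library shows how far the tested members lay from each other compared with the spread between doses.

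**Figure D1:**
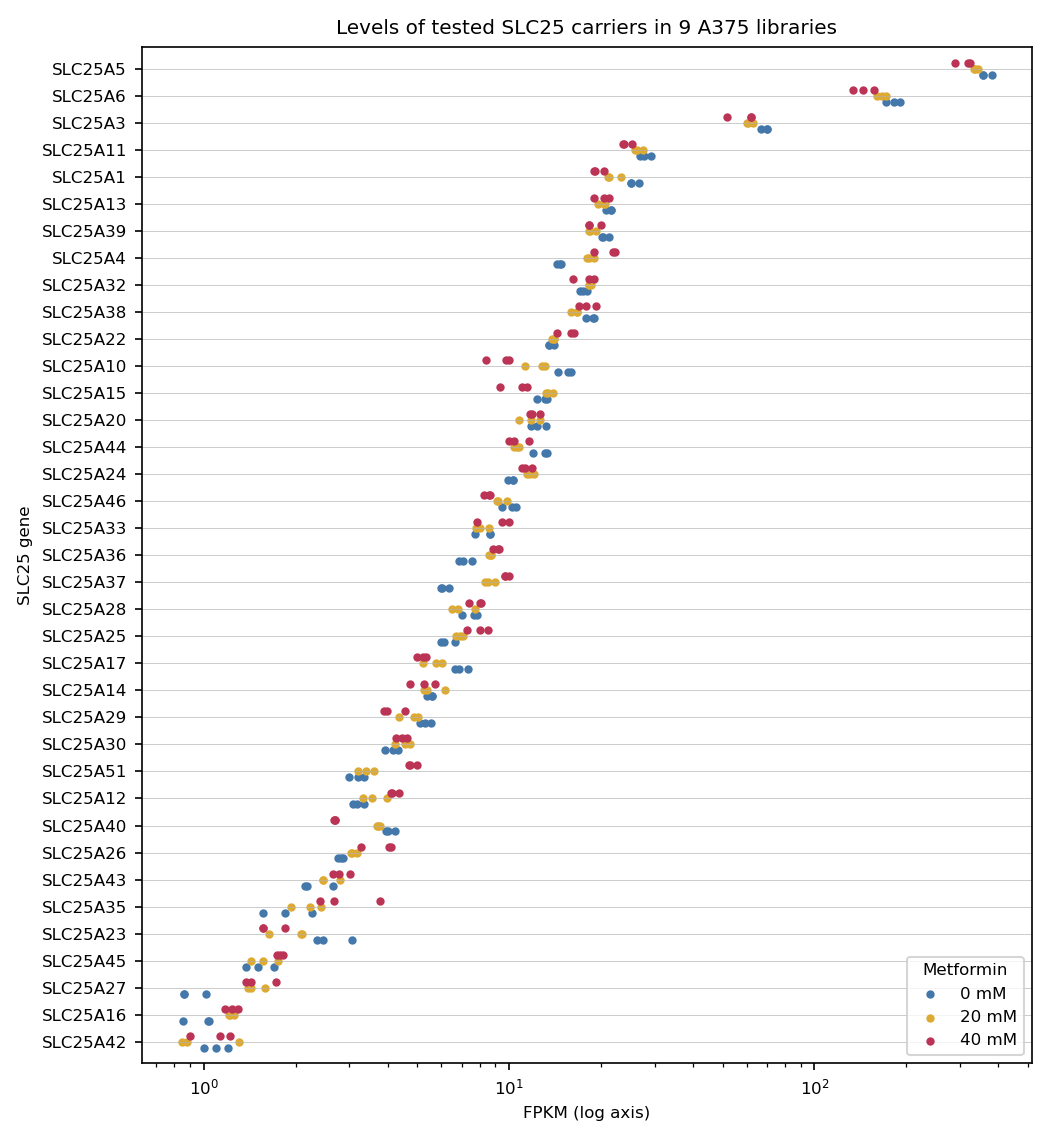
FPKM (log axis) of 37 of the 38 tested SLC25 members, 1 row per gene in order of mean level, with 1 point per library coloured by metformin dose. SLC25A5, SLC25A6 and SLC25A3 lie to the right of all others, and the spread between doses is small beside the spread between genes.

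At 40 mM most tested carriers differed from 0 mM, in both directions and by less than 2-fold. A member was called where edgeR's quasi-likelihood test over all 12394 tested genes gave an adjusted p (Benjamini-Hochberg) under 0.05, and rose and fell below refer to such calls. At 40 against 0 mM, 12 members rose and 14 fell, so 68.4% of the 38 were called against 56.2% of all tested genes, of which 28.8% rose and 27.4% fell. At 20 against 0 mM, 6 rose and 7 fell, or 34.2% against 31.6% of all tested genes, of which 16.3% rose and 15.2% fell. The rises at both doses include SLC25A16 and SLC25A27, which passed the filter of 1 FPKM only through the treated groups. At 40 against 20 mM, 4 rose and 9 fell, again 34.2%, against 29.3% of all tested genes, of which 14.3% rose and 15.1% fell. At 20 mM and between the doses the family's shares were thus near those of all genes.

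The family did not move one way. The median log2 fold change of the 38 members was -0.06 for 20 mM and -0.03 for 40 mM, each against 0 mM, and -0.02 between the doses, where the median of all tested genes was 0.00 in each. No member reached a 2-fold change. The median absolute log2 fold change at 40 against 0 mM was 0.29 in the family and 0.24 over all tested genes. In bulk RNA a lower level in every cell and a smaller share of cells with that transcript cannot be told apart.

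Calls were spread over the range of levels. Of the 12 tested members with the highest mean FPKM, 2 rose and 7 fell at 40 against 0 mM, and of the 13 with the lowest, 6 rose and 3 fell, where 28.8% of all tested genes rose and 27.4% fell. The 6 rises among the 13 lowest include SLC25A16 and SLC25A27, which averaged 0.974 and 0.913 FPKM at 0 mM. Both passed the filter of 1 FPKM only through the treated groups, so the filter itself favoured rises here. The summed FPKM of all 45 members was 932.1, 966.7 and 913.3 in the untreated libraries. It was 876.6, 867.6 and 896.3 at 20 mM, then 837.5, 846.5 and 806.6 at 40 mM. The 3 groups did not overlap in this sum, with the highest values at 0 mM and the lowest at 40 mM. As a share of all counts the family overlapped between 0 and 20 mM, at 0.304% to 0.316% and 0.296% to 0.304%, and between 20 and 40 mM, where the 40 mM libraries ran from 0.281% to 0.297%. As a share of all FPKM, 20 and 40 mM overlapped as well, at 0.342% to 0.352% and 0.320% to 0.345%. The FPKM sums rest largely on SLC25A5, SLC25A6 and SLC25A3.

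**Figure D2:**
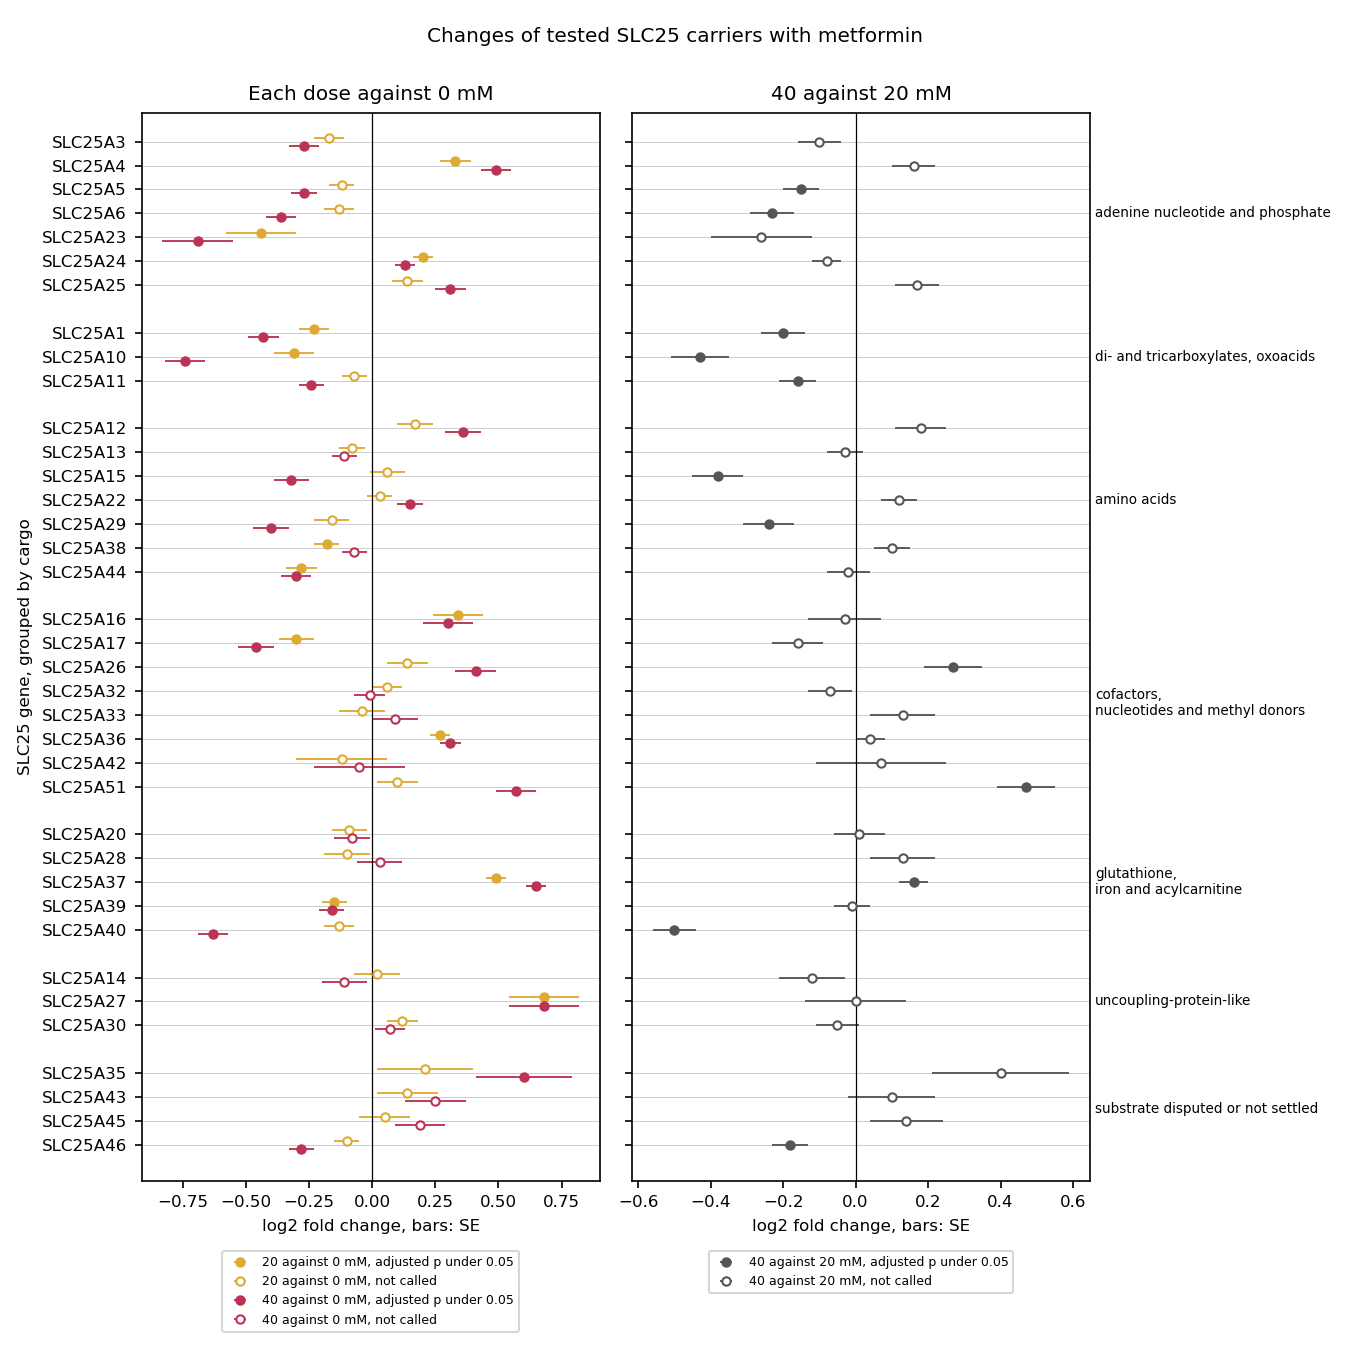
Log2 fold change of 37 of the 38 tested SLC25 members, grouped by what it carries, for each dose against 0 mM (left) and for 40 against 20 mM (right); bars are 1 SE and filled points have an adjusted p under 0.05. The 3 tested carriers of citrate, dicarboxylates and oxoglutarate lie left of 0 at 40 mM, where 27.4% of all tested genes fell. The adenine nucleotide and amino acid carriers lie on both sides.

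Among the ADP/ATP carriers, the minor isoform rose and both abundant isoforms fell. SLC25A4, the ADP/ATP carrier of heart and muscle, stood at 14.8, 14.4 and 14.7 FPKM at 0 mM, 18.0, 18.2 and 19.0 FPKM at 20 mM, and 21.9, 22.2 and 19.0 FPKM at 40 mM. Both treated groups lay wholly above the untreated one, with a log2 fold change of 0.33 ± 0.06 (SE) at 20 against 0 mM, adjusted p = 0.0016, and 0.49 ± 0.06 at 40 against 0 mM, adjusted p = 3.4e-05. Between the doses it was 0.16 ± 0.06, adjusted p = 0.056, and without replicate 3 of 40 mM 0.22 ± 0.04, adjusted p = 0.0019.

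SLC25A5 stood at 356.2, 380.0 and 356.7 FPKM at 0 mM, 334.7, 331.8 and 343.7 FPKM at 20 mM, and 319.3, 322.1 and 287.6 FPKM at 40 mM. Every 40 mM library lay below every other library, and the log2 fold change was -0.27 ± 0.05 at 40 against 0 mM, adjusted p = 0.00063, and -0.22 ± 0.03, adjusted p = 0.00027, without replicate 3 of 40 mM. At 20 against 0 mM it was -0.12 ± 0.05, adjusted p = 0.084, and without that same 40 mM library, which enters the estimate of spread, adjusted p = 0.012.

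SLC25A6 stood at 182.2, 190.3 and 171.6 FPKM at 0 mM, 166.6, 160.1 and 170.9 FPKM at 20 mM, and 133.8, 144.7 and 156.3 FPKM at 40 mM. It fell by 0.36 ± 0.06 on the log2 scale at 40 against 0 mM, adjusted p = 0.00049, with no overlap between these groups. At 20 against 0 mM the log2 fold change was -0.13 ± 0.06, adjusted p = 0.12, or 0.04 without replicate 3 of 40 mM. SLC25A6 lies in the pseudoautosomal region shared by the X and Y chromosomes, and how its reads were assigned to the copies was not given in the sources used here.

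Between the doses SLC25A5 and SLC25A6 fell by a further -0.15 ± 0.05, adjusted p = 0.033, and -0.23 ± 0.06, adjusted p = 0.018. Both calls were lost without replicate 3 of 20 mM (adjusted p = 0.11 and 0.067), and each without other libraries too.

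These opposite directions moved the makeup of the ADP/ATP carrier transcripts. SLC25A4 made up 2.68%, 2.47% and 2.70% of the summed FPKM of SLC25A4, SLC25A5 and SLC25A6 at 0 mM. At 20 mM its share was 3.47%, 3.58% and 3.57%, and in the 40 mM libraries it reached 4.62%, 4.53% and 4.11%, with no overlap between any groups. The ratio of SLC25A5 to SLC25A4 went from 24.9 ± 1.26 (SD, n = 3) at 0 mM to 18.3 ± 0.275 at 20 mM and 14.7 ± 0.335 at 40 mM. SLC25A5 remained the leading isoform throughout, at 65.0% ± 0.654 of the sum at 0 mM and 65.1% ± 2.64 at 40 mM.

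The windows just before the starts of the isoform that rose and of the leading isoform that fell are shown because the ADP/ATP carriers split in direction. They are the 250 bases before the RefSeq start in GRCh38.p14, written 5′ to 3′ on the gene's strand, at chr4:185143016-185143265 on the plus strand for SLC25A4 and at chrX:119468194-119468443 on the plus strand for SLC25A5. Capitals mark matches, on either strand, to CCAAT or TATAA.
SLC25A4: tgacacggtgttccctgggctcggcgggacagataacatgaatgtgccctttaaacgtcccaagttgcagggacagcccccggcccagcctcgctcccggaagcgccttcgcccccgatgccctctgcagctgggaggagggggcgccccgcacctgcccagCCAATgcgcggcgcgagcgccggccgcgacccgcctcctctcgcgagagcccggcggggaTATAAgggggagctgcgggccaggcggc
SLC25A5: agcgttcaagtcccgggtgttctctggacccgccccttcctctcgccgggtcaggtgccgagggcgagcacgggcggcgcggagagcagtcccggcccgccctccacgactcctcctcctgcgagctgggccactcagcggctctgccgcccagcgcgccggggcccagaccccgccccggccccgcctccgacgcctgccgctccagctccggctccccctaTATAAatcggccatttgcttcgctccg
Both windows held a TATAA match, found in 5 of the 39 member genes with a RefSeq window (12.8%) and in 13.9% of the tested genes with one. The SLC25A4 window also held a CCAAT match, as did 51.3% of the members with a window and 42.6% of the tested genes. The SLC25A6 window held 2 CCAAT matches and no TATAA. A gene with several windows was counted where any of them held a match. A match is a run of letters and was not tested for binding.

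The phosphate carrier SLC25A3 fell at 40 mM. It stood at 69.9, 70.0 and 66.7 FPKM at 0 mM, 60.7, 59.9 and 63.1 FPKM at 20 mM, and 62.0, 61.8 and 51.6 FPKM at 40 mM. All 6 treated libraries lay below the untreated ones, with log2 fold changes of -0.17 ± 0.06, adjusted p = 0.06, at 20 mM and -0.27 ± 0.06, adjusted p = 0.0039, at 40 mM. Without replicate 3 of 40 mM, its lowest library, the values were -0.17 ± 0.03, adjusted p = 0.0018, and -0.19 ± 0.04, adjusted p = 0.00096.

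The calcium-regulated ATP-Mg/phosphate carriers, which load or unload adenine nucleotides of the matrix, also split. SLC25A23 stood at 2.34, 2.46 and 3.06 FPKM at 0 mM, 1.63, 2.08 and 2.1 FPKM at 20 mM, and 1.56, 1.56 and 1.85 FPKM at 40 mM. Every treated library was below every untreated one, and the fall at 40 mM was -0.69 ± 0.14 in log2 fold change, adjusted p = 0.0014. At 20 mM it was -0.44 ± 0.14, adjusted p = 0.032, a call lost when any of 4 libraries was left out, with adjusted p up to 0.12 without replicate 3 of 0 mM.

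SLC25A24 stood at 9.95, 10.3 and 10.3 FPKM at 0 mM, 12.1, 11.7 and 11.4 FPKM at 20 mM, and 11.9, 11.0 and 11.3 FPKM at 40 mM. It rose by a log2 fold change of 0.20 ± 0.04 at 20 mM, adjusted p = 0.0049. Its rise of 0.13 ± 0.04 at 40 mM, adjusted p = 0.026, was lost without replicate 1 of 40 mM (adjusted p = 0.097) and without any one of the 0 mM libraries. SLC25A25 stood at 6.0, 6.64 and 6.13 FPKM at 0 mM, 7.06, 6.71 and 6.91 FPKM at 20 mM, and 8.54, 8.00 and 7.26 FPKM at 40 mM. It rose at 40 mM by 0.31 ± 0.06, adjusted p = 0.0017, and at 20 mM its log2 fold change was 0.14 ± 0.06, adjusted p = 0.12. The ratio of SLC25A25 to SLC25A23 was 2.42 ± 0.368 (SD, n = 3) at 0 mM and 4.85 ± 0.814 at 40 mM, with no overlap.

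The tested carriers of di- and tricarboxylates and oxoacids, 3 of 4 members, were all lower at 40 mM, where 27.4% of all tested genes fell. SLC25A10, which exchanges malate or succinate for phosphate, had the largest log2 fold change of the 38 tested SLC25A-named members in the comparisons with 0 mM. It stood at 16.0, 15.6 and 14.5 FPKM at 0 mM, 11.3, 12.8 and 13.1 FPKM at 20 mM, and 10.0, 8.43 and 9.73 FPKM at 40 mM. The 3 groups did not overlap, and the log2 fold change was -0.74 ± 0.08 at 40 against 0 mM, adjusted p = 2e-05, and -0.43 ± 0.08 at 40 against 20 mM, adjusted p = 0.0029. At 20 against 0 mM it was -0.31 ± 0.08, adjusted p = 0.012, and adjusted p = 0.051 without replicate 1 of 0 mM or without replicate 1 of 20 mM.

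SLC25A1, which exports citrate to the cytosol for lipid synthesis, stood at 26.7, 25.1 and 25.0 FPKM at 0 mM, 21.0, 21.3 and 23.2 FPKM at 20 mM, and 18.9, 20.5 and 19.1 FPKM at 40 mM. Its groups did not overlap either. It fell at both doses, by -0.23 ± 0.06 in log2 fold change at 20 mM, adjusted p = 0.0094, and by -0.43 ± 0.06 at 40 mM, adjusted p = 7.7e-05. Between the doses the value was -0.20 ± 0.06, adjusted p = 0.022, and the call was lost without replicate 3 of 20 mM (adjusted p = 0.093) and also without replicate 1 of 40 mM (adjusted p = 0.072).

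SLC25A11, which exchanges oxoglutarate for malate in the malate-aspartate shuttle, stood at 27.6, 29.1 and 26.8 FPKM at 0 mM, 25.9, 26.3 and 27.4 FPKM at 20 mM, and 23.7, 23.6 and 25.2 FPKM at 40 mM. The 40 mM libraries lay below all others, while 0 and 20 mM overlapped. The log2 fold change was -0.24 ± 0.05 at 40 against 0 mM, adjusted p = 0.0014, and -0.07 ± 0.05 at 20 against 0 mM, adjusted p = 0.27. At 40 against 20 mM it was -0.16 ± 0.05, adjusted p = 0.025, a call lost when any of 4 libraries was left out (adjusted p up to 0.097). The ratio of SLC25A11 to SLC25A10 was 1.81 ± 0.0762 (SD, n = 3), 2.14 ± 0.123 and 2.59 ± 0.216 at 0, 20 and 40 mM, without overlap.

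Closely related carriers with the same cargo often differed in what was called, as the plot by dose of 6 such sets shows. Whether 2 genes of a set differed from each other in their change was not tested, so their values are given side by side.

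**Figure D3:**
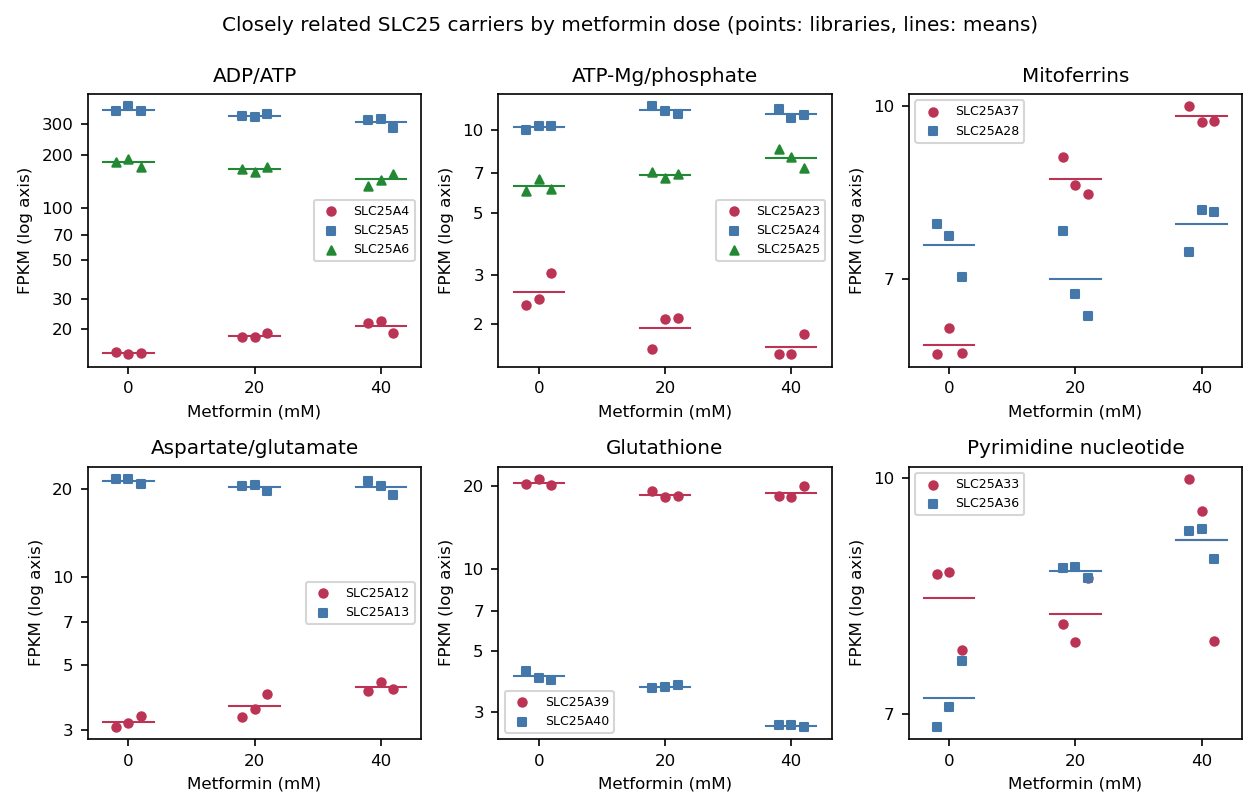
FPKM (log axis, a separate scale in each panel) of 6 sets of closely related SLC25 carriers at 0, 20 and 40 mM metformin; points are libraries and lines are group means. SLC25A4 rises while SLC25A5 and SLC25A6 fall, SLC25A37 rises from 6.12 to 9.81 on average and passes SLC25A28, and SLC25A40 is lowest at 40 mM, with its 20 mM libraries slightly below those at 0 mM.

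Of the 7 tested amino acid carriers, 2 fell at 20 against 0 mM, against 31.6% called over all tested genes. Among the same 7, 2 rose and 3 fell at 40 against 0 mM, where 28.8% of all tested genes rose and 27.4% fell. By edgeR or DESeq2 none rose at 20 against 0 mM, and 1, SLC25A12, was higher at an unadjusted edgeR p under 0.05. SLC25A12, the aspartate/glutamate carrier of brain and muscle, stood at 3.08, 3.18 and 3.34 FPKM at 0 mM, 3.32, 3.55 and 3.97 FPKM at 20 mM, and 4.09, 4.37 and 4.14 FPKM at 40 mM. It rose by a log2 fold change of 0.36 ± 0.07 at 40 mM, adjusted p = 0.0015, with all 40 mM libraries above the rest. Its liver-type counterpart SLC25A13 stood at 21.6, 21.6 and 20.8 FPKM at 0 mM, 20.4, 20.6 and 19.6 FPKM at 20 mM, and 21.3, 20.4 and 19.0 FPKM at 40 mM. The log2 fold change of SLC25A13 was -0.08 ± 0.05 at 20 mM, adjusted p = 0.25, and -0.11 ± 0.05 at 40 mM, adjusted p = 0.076. SLC25A13 thus remained the more abundant of the pair, and the ratio of SLC25A12 to it was 0.15 ± 0.00934 (SD, n = 3) at 0 mM and 0.208 ± 0.0141 at 40 mM.

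SLC25A15, the ornithine carrier that serves the urea cycle and polyamine routes, fell at 40 mM and was not called at 20 mM. It stood at 13.3, 13.1 and 12.3 FPKM at 0 mM, 13.9, 13.4 and 13.2 FPKM at 20 mM, and 11.4, 11.0 and 9.31 FPKM at 40 mM. The 0 and 20 mM groups overlapped and the 40 mM group lay below both. The log2 fold change was 0.06 ± 0.07, adjusted p = 0.51, at 20 against 0 mM and -0.32 ± 0.07, adjusted p = 0.0026, at 40 against 0 mM. It was -0.38 ± 0.07, adjusted p = 0.0027, at 40 against 20 mM, or -0.30 ± 0.05, adjusted p = 0.0012, without replicate 3 of 40 mM.

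SLC25A22, a glutamate carrier, stood at 13.5, 14.0 and 13.5 FPKM at 0 mM, 14.0, 13.8 and 14.0 FPKM at 20 mM, and 16.3, 14.3 and 16.0 FPKM at 40 mM. Its rise of 0.15 ± 0.05 at 40 mM, adjusted p = 0.028, was small and lost without any of 4 libraries, replicate 3 of 40 mM among them (adjusted p = 0.059). SLC25A44, a carrier of branched-chain amino acids, fell at both doses, with log2 fold changes of -0.28 ± 0.06, adjusted p = 0.0052, and -0.30 ± 0.06, adjusted p = 0.0014. SLC25A29, a carrier of basic amino acids, fell at 40 mM by -0.40 ± 0.07, adjusted p = 0.00088. The glycine carrier SLC25A38 fell at 20 mM by -0.18 ± 0.05, adjusted p = 0.031, lost when any of 5 libraries was left out (adjusted p up to 0.11).

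Among the carriers of cofactors, nucleotides and methyl donors, 4 of 9 tested rose and 1 fell at 40 against 0 mM, a share of calls near the 56.2% of all tested genes. SLC25A51, which brings NAD into mitochondria, stood at 2.98, 3.34 and 3.19 FPKM at 0 mM, 3.62, 3.39 and 3.19 FPKM at 20 mM, and 4.69, 4.75 and 5.0 FPKM at 40 mM. The 0 and 20 mM libraries overlapped and all 40 mM libraries lay above them. The log2 fold change was 0.10 ± 0.08 at 20 against 0 mM, adjusted p = 0.38. It was 0.57 ± 0.08, adjusted p = 0.00013, at 40 against 0 mM and 0.47 ± 0.08, adjusted p = 0.0019, at 40 against 20 mM.

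Of the pyrimidine nucleotide carriers, SLC25A36 was called and SLC25A33 was not. SLC25A36 stood at 6.87, 7.08 and 7.58 FPKM at 0 mM, 8.73, 8.74 and 8.59 FPKM at 20 mM, and 9.22, 9.25 and 8.85 FPKM at 40 mM. Most of its rise was thus present at 20 mM, with log2 fold changes of 0.27 ± 0.04, adjusted p = 0.00093, at 20 mM and 0.31 ± 0.04, adjusted p = 0.00012, at 40 mM. Between the doses the value was 0.04 ± 0.04, adjusted p = 0.54. SLC25A33 stood at 8.65, 8.67 and 7.71 FPKM at 0 mM, 8.02, 7.80 and 8.60 FPKM at 20 mM, and 9.98, 9.51 and 7.82 FPKM at 40 mM. Its log2 fold change at 40 against 0 mM was 0.09 ± 0.09, adjusted p = 0.40, and 0.19 ± 0.07, adjusted p = 0.035, without replicate 3 of 40 mM, its low library.

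SLC25A17, SLC25A26 and SLC25A16 of this group were called too. SLC25A17, a carrier of coenzyme A, FAD and related nucleotides that resides in peroxisomes, fell at both doses, with log2 fold changes of -0.30 ± 0.07, adjusted p = 0.007, and -0.46 ± 0.07, adjusted p = 0.00017. SLC25A26, which imports the methyl donor S-adenosylmethionine, rose at 40 mM by 0.41 ± 0.08, adjusted p = 0.0017. SLC25A16 rose at both doses, by 0.34 ± 0.10, adjusted p = 0.028, and 0.30 ± 0.10, adjusted p = 0.025, calls that were lost without replicate 1 of 0 mM (adjusted p = 0.095 and 0.091) and without some others. SLC25A16 averaged 0.974 FPKM at 0 mM, so it too passed the filter only through the treated groups, and with no filter both calls were lost (adjusted p = 0.057 and 0.054).

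The window before the start of SLC25A36 is shown because this gene rose at both doses and its window holds an E-box, CACGTG, which several members share. It covers chr3:140941586-140941835 on the plus strand (RefSeq, GRCh38.p14), with capitals marking matches to CACGTG or CCAAT on either strand.
SLC25A36: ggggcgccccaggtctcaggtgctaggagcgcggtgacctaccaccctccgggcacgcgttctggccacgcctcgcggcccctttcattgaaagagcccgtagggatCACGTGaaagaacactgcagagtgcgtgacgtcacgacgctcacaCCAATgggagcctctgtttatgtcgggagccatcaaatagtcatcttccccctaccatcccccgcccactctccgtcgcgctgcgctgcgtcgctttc
CACGTG, which reads the same on both strands, was found in 8 of the 39 member genes with a window (20.5%) and in 11.6% of the tested genes with one. Of the 7 tested members that held it, SLC25A26, SLC25A36 and SLC25A51 rose at 40 against 0 mM, SLC25A46 fell, and SLC25A13, SLC25A33 and SLC25A38 were not called. SLC25A26 has several windows, and only that at chr3:66220751-66221000 held the match. All its windows lie well inside its deposited span, which starts at 66133610. Of the 25 tested members whose window lacked it, 6 rose and 13 fell, where 28.8% of all tested genes rose and 27.4% fell. At 20 against 0 mM 1 of the 7 rose and 1 fell, and 3 of the 25 rose and 6 fell. There 16.3% of all tested genes rose and 15.2% fell. Whether the calls differed with the match was not tested, and 7 members are few. TGATGNAA, the core of the response element bound by ATF4, was found in 1 member gene, SLC25A11, or 2.56%, and in 2.17% of the tested genes. The full palindromic site of the nuclear respiratory factor NRF1 was found in none of the 39 and in 2.41% of the tested genes.

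Among the carriers of glutathione, iron and acylcarnitine, the iron carrier SLC25A37 and the glutathione carrier SLC25A40 changed most. SLC25A37, mitoferrin 1, stood at 6.0, 6.34 and 6.01 FPKM at 0 mM, 9.01, 8.50 and 8.35 FPKM at 20 mM, and 10.0, 9.68 and 9.71 FPKM at 40 mM. Its 3 groups did not overlap. It rose by a log2 fold change of 0.49 ± 0.04 at 20 mM, adjusted p = 2.4e-05, and 0.65 ± 0.04 at 40 mM, adjusted p = 9.4e-07, the smallest adjusted p of the family in each comparison with 0 mM. The further 0.16 ± 0.04 between the doses, adjusted p = 0.022, was lost when any of 3 libraries was left out (adjusted p up to 0.091).

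SLC25A28, mitoferrin 2, stood at 7.85, 7.66 and 7.03 FPKM at 0 mM, 7.74, 6.79 and 6.49 FPKM at 20 mM, and 7.41, 8.08 and 8.05 FPKM at 40 mM. Its groups overlapped, with log2 fold changes of -0.10 ± 0.09, adjusted p = 0.41, at 20 mM and 0.03 ± 0.09, adjusted p = 0.81, at 40 mM. The ratio of SLC25A37 to SLC25A28 was 0.764, 0.828 and 0.855 in the untreated libraries. It was 1.16, 1.25 and 1.29 at 20 mM, then 1.36, 1.20 and 1.21 at 40 mM. SLC25A37 was the lower of the mitoferrins in every untreated library and the higher in every treated one.

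SLC25A40 stood at 4.23, 4.01 and 3.95 FPKM at 0 mM, 3.68, 3.72 and 3.77 FPKM at 20 mM, and 2.69, 2.69 and 2.66 FPKM at 40 mM. The 40 mM libraries lay close together and far below the others, with a log2 fold change of -0.63 ± 0.06 at 40 against 0 mM, adjusted p = 8.6e-06, and of -0.50 ± 0.06 at 40 against 20 mM, adjusted p = 0.00028. At 20 against 0 mM it was -0.13 ± 0.06, adjusted p = 0.12, although the 20 mM libraries all lay below those at 0 mM.

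SLC25A39, the more abundant glutathione carrier, whose protein is known to be stabilised when mitochondrial glutathione is low, stood at 20.3, 21.2 and 20.2 FPKM at 0 mM, 19.2, 18.2 and 18.4 FPKM at 20 mM, and 18.3, 18.2 and 20.0 FPKM at 40 mM. Its small falls of -0.15 ± 0.05, adjusted p = 0.041, at 20 mM and -0.16 ± 0.05, adjusted p = 0.017, at 40 mM were lost without replicate 2 of 0 mM, among other libraries (adjusted p = 0.13 and 0.062). Scaling to library totals ended both calls too (adjusted p = 0.063 and 0.083). The ratio of SLC25A39 to SLC25A40 was 5.07 ± 0.245 (SD, n = 3) at 0 mM, 5.00 ± 0.199 at 20 mM and 7.04 ± 0.422 at 40 mM. SLC25A20, the carnitine/acylcarnitine carrier, had log2 fold changes of -0.09 ± 0.07 and -0.08 ± 0.07 with overlapping groups.

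**Figure D4:**
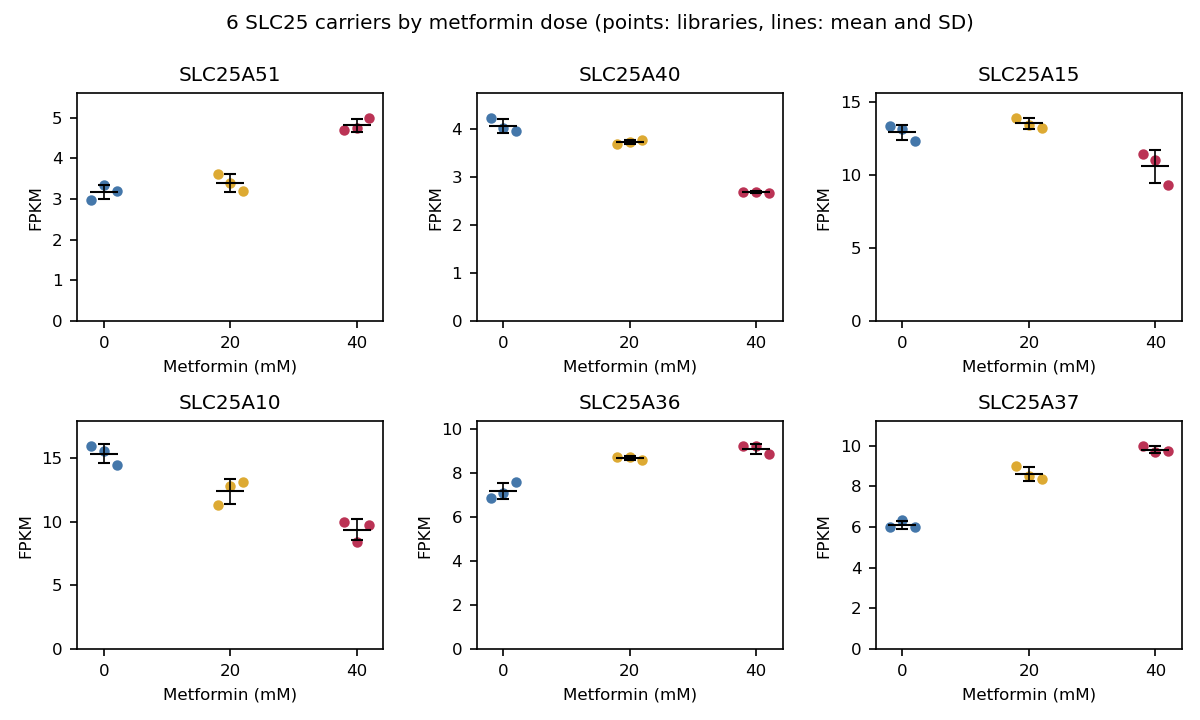
FPKM of 6 SLC25 carriers at 0, 20 and 40 mM metformin, chosen after their values were seen to show different dose patterns; points are libraries, and lines and bars are mean and SD of 3 libraries. SLC25A51, SLC25A40 and SLC25A15 differ mainly at 40 mM, SLC25A10 drops at each dose, and SLC25A36 and SLC25A37 are already higher at 20 mM.

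The carriers related to the uncoupling proteins were little changed apart from SLC25A27, known from brain. SLC25A27 stood at 0.862, 1.02 and 0.863 FPKM at 0 mM, 1.40, 1.43 and 1.59 FPKM at 20 mM, and 1.37, 1.72 and 1.43 FPKM at 40 mM. All treated libraries lay above the untreated ones and the treated groups overlapped. The log2 fold change was 0.68 ± 0.14 at each dose, adjusted p = 0.0041 at 20 mM and 0.0017 at 40 mM. SLC25A27 averaged 0.913 FPKM at 0 mM and passed the filter of 1 FPKM only through the treated groups. With no filter the adjusted p was 0.012 and 0.0051. SLC25A14 and SLC25A30 were not called in any comparison, with log2 fold changes between -0.12 and 0.12.

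Of the 4 tested members whose substrate is disputed or not settled, SLC25A35 rose and SLC25A46 fell at 40 mM. SLC25A35 stood at 1.85, 1.56 and 2.27 FPKM at 0 mM, 2.42, 1.93 and 2.23 FPKM at 20 mM, and 2.40, 2.66 and 3.79 FPKM at 40 mM, the last value standing well above the rest. Its log2 fold change of 0.60 ± 0.19, adjusted p = 0.018, became 0.38 ± 0.16, adjusted p = 0.064, without replicate 3 of 40 mM and 0.48 ± 0.20, adjusted p = 0.072, without replicate 2 of 0 mM. SLC25A46, an outer membrane protein of mitochondrial fusion and fission and no known transporter, fell by -0.28 ± 0.05, adjusted p = 0.00083. SLC25A43 and SLC25A45 had log2 fold changes of 0.25 ± 0.12, adjusted p = 0.10, and 0.19 ± 0.10, adjusted p = 0.14, at 40 mM.

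Leaving out replicate 3 of 40 mM changed 5 calls of members at 20 against 0 mM, through the shared estimate of spread, and 3 in each of the other comparisons. At 20 mM 6 rose and 12 fell, SLC25A3, SLC25A5, SLC25A6 and SLC25A29 being among the added falls. At 40 against 0 mM 11 rose and 14 fell, with SLC25A22 and SLC25A35 lost and SLC25A33 added. At 40 against 20 mM 7 rose and 9 fell, with SLC25A4, SLC25A25 and SLC25A33 added. Calls over all tested genes rose too without this library, from 3911 to 4966 at 20 against 0 mM. They went from 6962 to 7135 at 40 against 0 mM and from 3637 to 4065 at 40 against 20 mM. With no filter on levels, the calls of SLC25A23, SLC25A38 and SLC25A39 at 20 mM (adjusted p = 0.083, 0.088 and 0.10) and of SLC25A22, SLC25A24 and SLC25A35 at 40 mM (adjusted p = 0.089, 0.081 and 0.051) were lost too.

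Several members share their start or ends with a gene on the other strand. The libraries mark strand, per the labels' protocols, but whether counting used it was not given in the sources used here. Reads of such pairs may therefore not have been told apart. SLC25A40 and DBF4, a cell cycle kinase regulator, overlapped by 145 bases, and DBF4 rose at 40 mM by a log2 fold change of 0.20 ± 0.05, adjusted p = 0.0055, while SLC25A40 fell. The deposited span of SLC25A12 overlapped HAT1 by 61239 bases, and HAT1 had a log2 fold change of -0.02 ± 0.04 at 40 mM. METAP1D, whose start lay 84 bases from that of the same span, fell by -0.67 ± 0.14, adjusted p = 0.0023. This span runs from 171783405 to 171999859 on the minus strand of chromosome 2. The RefSeq window before SLC25A12 lies well inside it, at chr2:171894245-171894494, so the overlap and the near start rest on the long deposited span. SLC25A51 overlapped the pseudogene TMX2P1 by 708 bases, and TMX2P1 also rose, by 0.47 ± 0.12, adjusted p = 0.0078. SLC25A35 overlapped RANGRF by 1439 bases, and RANGRF, at a mean of 17.8 FPKM the more abundant, had a log2 fold change of 0.00 ± 0.11. The antisense gene SLC25A25-AS1 overlapped SLC25A25 by 665 bases and rose by 0.59 ± 0.08, adjusted p = 0.0004, at 20 mM and 0.88 ± 0.08, adjusted p = 6.3e-06, at 40 mM. Listed pseudogenes of the members held at most 1.13% of the counts of their parent gene.

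Genes that work with the carriers were described from 5 further lists. Beside the calls in these lists stand those over all tested genes, 31.6% at 20 mM and 56.2% at 40 mM, each against 0 mM. Of 10 genes of the import and insertion route for carriers, 1 was called at 20 mM and 3 at 40 mM. TIMM9 rose at 20 mM, by a log2 fold change of 0.35 ± 0.07, adjusted p = 0.0024. At 40 mM TIMM9 rose by 0.17 ± 0.07, adjusted p = 0.042 (0.15 without replicate 2 of 40 mM), and TIMM8A and TIMM13 fell, TIMM13 by -0.48 ± 0.11, adjusted p = 0.0033. TIMM22, TIMM29, AGK, TOMM70 and TIMM10 were not called at either dose. Of the 5 family members with other symbols, UCP1 and UCP3 were below the level for testing, and UCP2 fell at 40 mM by -0.78 ± 0.15, adjusted p = 0.0011. MTCH1 and MTCH2 were not called against 0 mM.

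Of 10 metabolite transporters outside the family, 2 rose and 3 fell at 20 mM, and 2 rose and 4 fell at 40 mM, where 56.2% of all tested genes were called. SFXN2, a sideroflexin, fell most, with log2 fold changes of -0.50 ± 0.10, adjusted p = 0.0029, and -1.18 ± 0.10, adjusted p = 3.4e-06. The outer membrane channels VDAC1 and VDAC3 fell at both doses, VDAC1 from 122.3 FPKM at 0 mM to 106.5 and 99.7 FPKM, while VDAC2 was not called. SFXN3 and the pyruvate carrier subunit MPC2 rose at both doses, MPC2 by 0.24 ± 0.06 and 0.31 ± 0.06, while MPC1 had -0.29 ± 0.12, adjusted p = 0.066, at 40 mM. The calls at 20 mM were lost when single libraries were left out, with adjusted p up to 0.058 for MPC2 (without replicate 2 of 0 mM) and 0.085 for SFXN3 (without replicate 1 of 0 mM). The same held for SFXN1, the fourth gene to fall at 40 mM (adjusted p = 0.024, and 0.10 without replicate 1 of 0 mM).

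The enzymes of the malate-aspartate and glycerol phosphate shuttles also split. Those of the malate-aspartate shuttle share substrates with SLC25A11, SLC25A12 and SLC25A13. The cytosolic aminotransferase GOT1 rose from 29.6 FPKM at 0 mM to 46.6 and 49.1 FPKM, with log2 fold changes of 0.65 ± 0.05, adjusted p = 1.2e-05, and 0.70 ± 0.05, adjusted p = 1.9e-06. The cytosolic malate dehydrogenase MDH1 fell from 34.1 to 22.4 FPKM at 40 mM, by -0.64 ± 0.07, adjusted p = 1.5e-05. The glycerol phosphate dehydrogenase GPD1L rose at both doses, by 0.32 ± 0.05 and 0.50 ± 0.05. Of the 6 tested enzymes of this list, 2 rose and 2 fell at 40 mM, the other fall being MDH2 with -0.22 ± 0.07, adjusted p = 0.018 (0.071 without replicate 2 of 40 mM).

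Among 12 partner enzymes of the citrate, acylcarnitine, folate, iron and glutathione carriers, 3 rose and 5 fell at 40 against 0 mM, where 28.8% of all tested genes rose and 27.4% fell. The fall of CPT1A, which makes acylcarnitines, was small at -0.14 ± 0.05, adjusted p = 0.036. Its call was lost under 12 of 18 alternatives. Scaling to library totals (adjusted p = 0.15) and leaving out replicate 3 of 40 mM (adjusted p = 0.068) were among them. CPT2, which takes acylcarnitines delivered by SLC25A20, fell by -0.35 ± 0.06, adjusted p = 0.0027, at 20 mM and by -1.03 ± 0.07, adjusted p = 6.3e-07, at 40 mM. ACLY, which cleaves the citrate exported by SLC25A1, fell by -0.24 ± 0.03, adjusted p = 0.00013, at 40 mM. The folate enzymes SHMT2 and MTHFD2 rose at both doses and were lower at 40 than at 20 mM, with MTHFD2 at 45.9, 94.2 and 80.3 FPKM at 0, 20 and 40 mM. ABCB10, known to stabilise SLC25A37 in red cell precursors, fell at 40 mM by -0.57 ± 0.05, adjusted p = 6.1e-06. AFG3L2, a protease known to act on SLC25A39, was not called in any comparison. At 40 against 0 mM its log2 fold change was 0.11, adjusted p = 0.098. It was called higher there under 5 of 18 alternatives, leaving out replicate 3 of 40 mM among them (adjusted p = 0.0048).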

How the data were processed

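The deposited table gives read counts per gene and library, per the file headers. It also gives FPKM per gene and library, made by the authors, per the file headers. Per the submitters' processing notes, which state no role for it, StringTie 2.1.6 was among the tools. Paired-end, strand-marking libraries were made from polyadenylated RNA, per the labels' protocols. Aligner, build and filters were not given in the sources used here.

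All 9 libraries were fitted with edgeR 4.0.16 (R 4.3.3), quasi-likelihood test, TMM scaling, dose group only, on the 12394 genes whose mean FPKM was 1 or more, which held 98.74% of the counts. P-values were adjusted by Benjamini-Hochberg over these genes and called at 0.05. The SE is the log2 fold change over the square root of F. Counts set the test and FPKM the printed levels. The labels do not tell whether replicates are separate cultures, so p-values measure only the scatter of these samples, which may be technical. Counting error was not separated from this scatter. No 2 libraries held the same values, and the fit was tested on simulated data.

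Full values are given for the 6 most abundant members, members called with an absolute log2 fold change of at least 0.5, and closely related sets; others named were chosen after their values were seen. Members and lists were chosen with earlier results of these data known. Alternatives were no filter or at least 5 FPKM, median-of-ratios or library-total scaling, DESeq2 1.42.0, limma 3.58.1 on log2(FPKM + 1) and log2(FPKM + 0.1), only the 6 libraries compared, a replicate block, a threshold of 0.01, and leaving out each library. Promoter windows are from RefSeq, GRCh38.p14, and 39 of 45 members had one. The values of 1 tested member enter the counts and are not reported here.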

Additional observations from a re-analysis of the deposited data

How the results depend on the processing

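The counts of SLC25 calls depended on the filter, the scaling and single libraries mainly at 20 against 0 mM and at 40 against 20 mM. Members that fell at 20 against 0 mM numbered 7, but 4 without the filter, 3 at an adjusted p under 0.01 and 4 to 12 with a library left out. Members that rose at 40 against 0 mM numbered 12, but 6 with at least 5 FPKM, which tests fewer genes. At 40 against 20 mM the rises numbered 4, but 1 without the filter, 8 with scaling to library totals, 1 at an adjusted p under 0.01 and 1 to 7 with a library left out (7 without replicate 3 of 40 mM; leaving out replicate 2 of 20 mM or replicate 1 of 40 mM gave 1). The falls there numbered 9, but 5 with scaling to library totals, 5 with limma at either pseudocount, 3 at an adjusted p under 0.01 and 4 to 9 with a library left out; the cause was not tested. With at least 5 FPKM, 2517, 4245 and 2367 of all genes were called in the 3 comparisons, against 3911, 6962 and 3637. With a library left out, 2731 to 4966 of all genes were called at 20 against 0 mM. The range was 6049 to 7135 at 40 against 0 mM and 2408 to 4065 at 40 against 20 mM.

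Only members near 0 changed sign, none of them called in that comparison. At 20 against 0 mM, with a library left out, SLC25A14 ran from -0.06 to 0.06 and SLC25A45 from -0.03 to 0.13. At 40 against 0 mM SLC25A28 ran from -0.02 to 0.07, SLC25A42 from -0.15 to 0.06 and SLC25A32 from -0.05 to 0.05; SLC25A32 was 0.01 with at least 5 FPKM, 0.04 with library totals and 0.02 with limma. At 40 against 20 mM SLC25A13 ran from -0.07 to 0.01, SLC25A16 from -0.06 to 0.01, SLC25A20 from -0.05 to 0.06, SLC25A39 from -0.06 to 0.01, SLC25A42 from -0.04 to 0.29 and SLC25A44 from -0.09 to 0.02. There library totals gave 0.01 for SLC25A13 and SLC25A16 and 0.02 for SLC25A39 and SLC25A44, limma 0.02 for SLC25A39 and 0.01 for SLC25A44, and no filter -0.01 for SLC25A20.

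With a replicate block, 6 members rose and 7 fell at 20 against 0 mM, 12 and 15 at 40 against 0 mM (SLC25A13 added, -0.11, adjusted p = 0.036) and 4 and 9 at 40 against 20 mM. Over all tested genes the block gave 4245, 7215 and 3982 calls in the 3 comparisons, against 3911, 6962 and 3637. Correlations of same-numbered libraries ran from -0.101 to 0.186, and those of differently numbered ones from -0.191 to 0.124. Not every library correlated best with its own number. With 3 libraries a group, such weak correlations cannot decide whether the numbers pair the libraries.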
